A study of Mus musculus with 4 samples.

Results

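The genes described here are 9 mouse genes that brake entry into S phase: the CDK inhibitor genes Cdkn1a and Cdkn1b of the CIP/KIP family, the inhibitor genes Cdkn2a, Cdkn2b, Cdkn2c and Cdkn2d of the INK4 family, and the retinoblastoma family genes Rb1, Rbl1 and Rbl2. They were chosen by name, and every probe set of an Affymetrix mouse array that the platform annotation assigns to them was taken, which gave 16 probe sets for 9 of 18193 genes measured. RNA of 4 cultures was hybridised, with 1 array each. R1 embryonic stem (ES) cells are an established mouse line, and multipotent germline stem (mGS) cells are ES-like cells derived from germline cultures. These 2 cultures grew in a standard ES cell medium. Germline stem (GS) cells of Trp53 knockout mice, titled with the name ICR, and GS cells without that label grew in a GS medium based on StemPro-34; GS cells are spermatogonial stem cells in long-term culture. The knockout allele and the strains of the other cultures are not given in the sources used here. Between the knockout GS and GS arrays, genotype therefore cannot be told apart from strain or from differences between single cultures. Nor can medium and cell type be told apart between the ES and mGS arrays and the Trp53 knockout GS and GS arrays.

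In a cycling cell, D cyclins with CDK4 or CDK6, and then E cyclins with CDK2, phosphorylate the pocket proteins encoded by Rb1, Rbl1 and Rbl2, which releases E2F factors and turns on the genes of S phase. INK4 proteins bind CDK4 and CDK6 alone, whereas CIP/KIP proteins bind cyclin-CDK complexes, with CDK2 as a main target. Mouse ES cells are known for a short G1 phase with high cyclin E and CDK2 activity, and in the testis Cdkn1b and the pocket proteins are tied to the exit of germ cells from division. Cdkn2a encodes the unrelated proteins Ink4a and Arf from separate first exons, and Arf acts on p53 through Mdm2, while Cdkn1a is a textbook target of p53.

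Promoter sequences are shown for the CDK inhibitor genes that passed 2-fold in a comparison, with both starts of Cdkn2a, and for Rbl1, the pocket protein gene with an E2F match. The RefSeq promoter table of build GRCm38.p6 held 11 windows for 8 of the 9 genes, all but Rb1, and the 250 bases before the start are printed. Capitals mark matches on either strand to the E2F motif in its forms TTTGGCGC, TTTGCCGC, TTTCGCGC and TTTCCCGC, to the CHR motif TTTGAA of DREAM-bound genes, and to the p53 response element with at most 1 mismatch in 20 positions.
Cdkn1a, upstream start, chr17:29090729-29090978, plus strand: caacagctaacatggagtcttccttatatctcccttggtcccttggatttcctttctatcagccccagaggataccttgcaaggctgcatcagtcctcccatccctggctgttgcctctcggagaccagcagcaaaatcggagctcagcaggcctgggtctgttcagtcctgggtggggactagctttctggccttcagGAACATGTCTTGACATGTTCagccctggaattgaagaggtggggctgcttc
Cdkn1b, chr6:134920151-134920400, plus strand: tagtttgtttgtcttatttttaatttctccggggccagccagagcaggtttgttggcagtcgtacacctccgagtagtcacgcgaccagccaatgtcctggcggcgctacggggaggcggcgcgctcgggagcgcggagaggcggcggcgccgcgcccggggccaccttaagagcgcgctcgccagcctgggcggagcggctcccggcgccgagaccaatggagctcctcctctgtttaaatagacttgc
Cdkn2a, Arf start, chr4:89294620-89294869, minus strand: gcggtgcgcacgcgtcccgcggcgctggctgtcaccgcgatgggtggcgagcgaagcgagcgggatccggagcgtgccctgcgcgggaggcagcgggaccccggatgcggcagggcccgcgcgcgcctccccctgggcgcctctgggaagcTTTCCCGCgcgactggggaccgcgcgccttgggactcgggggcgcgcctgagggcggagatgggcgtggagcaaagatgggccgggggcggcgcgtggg
Cdkn2a, Ink4a start, chr4:89282193-89282442, minus strand: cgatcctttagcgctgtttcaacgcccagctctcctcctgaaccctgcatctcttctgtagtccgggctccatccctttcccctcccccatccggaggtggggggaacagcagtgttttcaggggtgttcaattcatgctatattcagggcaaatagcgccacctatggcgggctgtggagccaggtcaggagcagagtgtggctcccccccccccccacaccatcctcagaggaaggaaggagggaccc
Cdkn2b, chr4:89311033-89311282, minus strand: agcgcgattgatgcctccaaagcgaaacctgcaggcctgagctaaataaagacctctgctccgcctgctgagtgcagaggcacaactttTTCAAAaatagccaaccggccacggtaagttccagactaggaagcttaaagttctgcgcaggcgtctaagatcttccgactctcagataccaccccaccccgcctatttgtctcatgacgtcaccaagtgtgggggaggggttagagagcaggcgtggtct
Rbl1, chr2:157204535-157204784, minus strand: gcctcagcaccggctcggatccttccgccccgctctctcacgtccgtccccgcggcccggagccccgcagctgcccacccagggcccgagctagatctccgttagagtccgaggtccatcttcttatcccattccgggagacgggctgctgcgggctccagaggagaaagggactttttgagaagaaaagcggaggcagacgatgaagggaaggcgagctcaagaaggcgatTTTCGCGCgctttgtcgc
The first window precedes the upstream of 2 annotated Cdkn1a starts, and its p53 match lies at positions -51 to -32 from that start. The window of the other Cdkn1a start is not printed and held none of the marked motifs. Such a match was in 1 of the 11 windows, and in 25 (0.0761%) of all 32851. The allowance of 1 mismatch was set after the sequence had been seen. The windows of Arf and Ink4a are those of the 2 Cdkn2a starts, and the Ink4a and Cdkn1b windows held none of the marked motifs. The E2F motif was found in 2 of the 11 windows, those of Arf and Rbl1, against 1.86% of all windows, and the CHR motif in 2, those of Cdkn2b and Rbl2, against 16.0%. The GC box GGGCGG was in 6 of the 11, against 32.7% of all. None of the E2F, CHR and p53 matches overlapped a GC box. The member windows had a median of 16 CpG sites, and all windows one of 6. A match describes letters only and shows no binding.

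The arrays carried the cell identities of their labels. All 10 pluripotency markers were above the array median on the ES and mGS arrays, and 7 on knockout GS and on GS. All 10 germ cell markers were above it on the knockout GS and GS arrays, 6 on ES and 8 on mGS. The levels set the pairs apart. Summed pluripotency signals were 86488 on ES, 102392 on mGS, 6403 on knockout GS and 7156 on GS. Summed germ cell signals were 1912, 3834, 105552 and 90101 in the same order. The summed signal of 20 fibroblast markers was 80241 on the ES array, 19999.8 on the mGS array, 5867 on the knockout GS array and 3693 on the GS array. The labels' growth protocol does not mention feeder cells. Poly-A control RNA dap gave signals of 2545 for ES and 3055 for knockout GS but 255 on mGS and 271 on GS, and the hybridisation control bioC read 602 on the knockout GS array, against 3066 to 3499 on the other 3. The Trp53 transcript was not analysed here, so the knockout label was not checked at its target.

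With 1 array a group there was no replicate error and no test, and every difference below is a value from 2 arrays. Signals are quantile normalized. A signal under the array median, 82.7, was raised to it, and a difference that used it is written as at least N-fold. The scatter between probe sets of 1 gene serves as a rough yardstick: the SD of the log2 difference between them was 0.50 for mGS against GS, 0.45 for ES against mGS, 0.61 for ES against GS and 0.49 for knockout GS against GS. Of the 9 genes, 8 were above the median on at least 1 array and could be compared, 7 of them on all 4 arrays. In these bulk samples, fewer cells of a type and less RNA per cell cannot be told apart.

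On the mGS array, 2 of 8 genes were at least 2-fold below GS, Rb1 and Cdkn2a, and none was 2-fold above, where 16.5% of 11981 genes were that far below, 15.3% that far above and 31.8% either. On the ES array, 2 of 8 were at least 2-fold above mGS, Cdkn2b and Cdkn1a, and none below, where 6.9% of 11816 genes were that far above, 5.13% that far below and 12% either. Against GS, the ES array had Cdkn2b, Cdkn1a and Cdkn1b higher and Rb1 and Cdkn2a lower by at least 2-fold, 5 of 8 genes, where 17.4% of 12107 genes were that far above, 17.2% that far below and 34.6% either. On the knockout GS array, 1 of 8 genes, Cdkn1b, was at least 2-fold above GS and none below, where 9.77% of 11623 genes were that far above, 6.93% that far below and 16.7% either. With arrays centred on their medians the split of all genes turned, with 838 above and 1072 below in place of 1135 and 805 for knockout GS against GS, and 722 and 758 in place of 815 and 606 for ES against mGS. The median log2 difference of the 8 genes was -0.47 for mGS against GS, 0.35 for ES against mGS, 0.11 for ES against GS and 0.00 for knockout GS against GS, where all genes had medians of -0.04, 0.00, -0.03 and 0.07 in the same order. Counted in either direction, the share of members was above that of all genes for ES against mGS and ES against GS and below it in the other 2 comparisons, and 8 genes are too few to read more from a share. The comparisons with GS share its array.

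**Figure D1:**
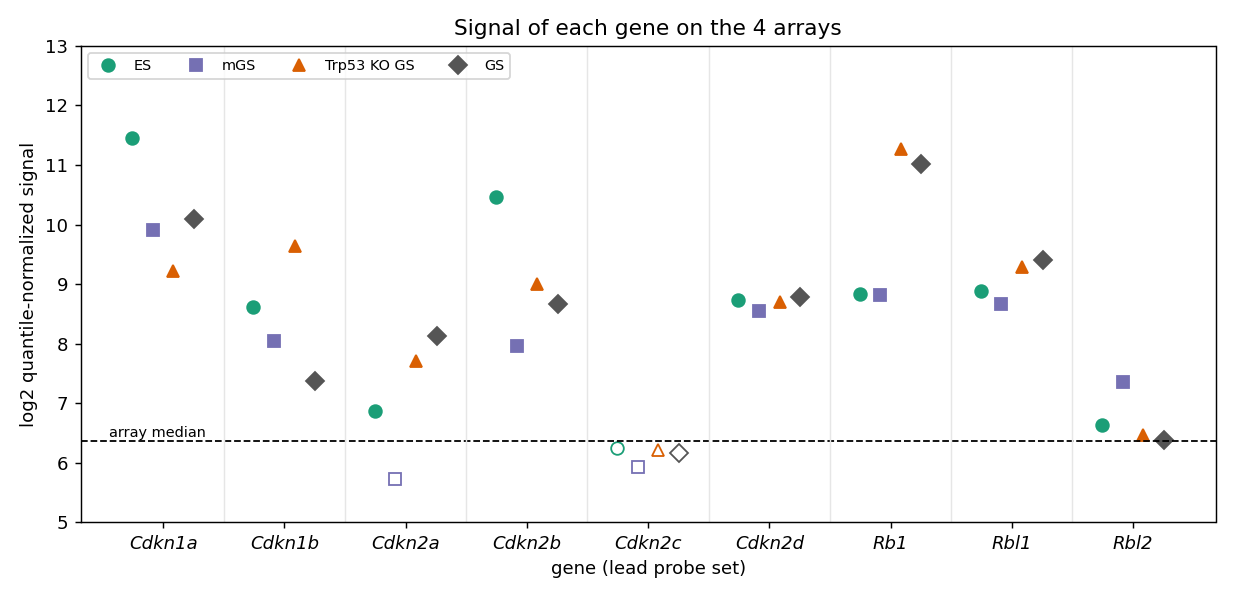
Log2 quantile-normalized signal (y axis) of the lead probe set of each gene (x axis) on the ES, mGS, Trp53 KO GS and GS arrays, 1 point an array; open points lie under the array median (dashed). Rb1 is lower on ES and mGS (459 and 449 in linear signal) than on knockout GS and GS (2471 and 2068), Cdkn1b peaks on the knockout GS array, and Cdkn2b and Cdkn1a peak on the ES array.

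Cdkn1a, which encodes the p53-induced inhibitor p21, read 2815 on the ES array, 965 on mGS, 595 on knockout GS and 1095 on GS. The ES array was highest and the knockout GS array lowest, a range of 4.73-fold that was wider than that of 85.2% of 12897 genes above the median on at least 1 array. Against mGS the ES signal was 2.92-fold higher, and against GS 2.57-fold higher. The knockout GS signal was 1.84-fold lower than GS, a log2 difference of -0.88. Only 8.94% of genes compared had a lower one. A second probe set gave the same order of arrays, with 281 on ES, 182 on mGS, 148 on knockout GS and 226 on GS. Its differences were smaller: ES was 1.55-fold above mGS and only 1.24-fold above GS, and knockout GS was 1.52-fold below GS. With the mean of both probe sets, the log2 difference of ES against GS was 0.84 and no longer 2-fold, and that of ES against mGS was 1.09. With arrays centred on their medians, the knockout GS difference of the lead probe set was -1.02, past 2-fold. The distal Cdkn1a window printed above holds the p53 match; the array cannot say from which start the RNA came.

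Cdkn1b, which encodes the inhibitor p27 that holds cells in G0 and G1, showed the largest member difference on the knockout GS array. Its lead probe set read 391 on ES, 263 on mGS, 797 on knockout GS and 165 on GS. The knockout GS signal was thus 4.84-fold that of GS, a log2 difference of 2.27 that exceeded that of 99.3% of genes compared. It was also above ES and mGS, so that the GS culture was the lowest of the 4 and the knockout GS culture the highest. ES was 2.37-fold and mGS 1.60-fold above GS. A second probe set lay under the array median on all 4 arrays, at 48.2, 30.3, 39.8 and 6.18 for ES, mGS, knockout GS and GS, and gave no difference to set beside the lead. The Cdkn1b differences therefore rest on 1 probe set. With the mean of both, GS lay under the array median and was raised to it, so the log2 differences from GS were bounds. They were at least 0.73 for ES, a bound short of 2-fold, at least 0.11 for mGS and at least 1.11 for knockout GS.

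The neighbouring genes Cdkn2a and Cdkn2b on chromosome 4 did not follow each other. Cdkn2a read 116 on the ES array, 53.1 on mGS, 209 on knockout GS and 279.9 on GS. Both arrays in GS medium were above both in ES medium, and the mGS value lay under the array median. The mGS signal was at least 3.39-fold lower than GS, and the ES signal 2.41-fold lower. Knockout GS was 1.34-fold lower than GS, a log2 difference of -0.42 that is within the scatter between probe sets. The single probe set carries only the gene symbol, so Ink4a and Arf RNA were not separated. The size of this mGS bound is set by the floor. With the floor at the 60th percentile of the array it was -0.86 in log2, short of 2-fold, and without a floor the mGS difference was -2.40.

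Cdkn2b, whose INK4 protein is induced by TGF-beta in human epithelial cells, read 1411 on the ES array, 249 on mGS, 510.2 on knockout GS and 405 on GS. It had the widest range of the 9 genes, 5.67-fold, all of it between ES and mGS, and the log2 difference of 2.50 exceeded that of 99.1% of 11816 genes. The other 3 arrays spanned less, from 249 on mGS to 510.2 on knockout GS, slightly more than 2-fold. Of these, mGS was 1.63-fold below GS, and knockout GS 1.26-fold above it. The CHR match of its window is shared with 16.0% of promoters. The value rests on 1 probe set.

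**Figure D2:**
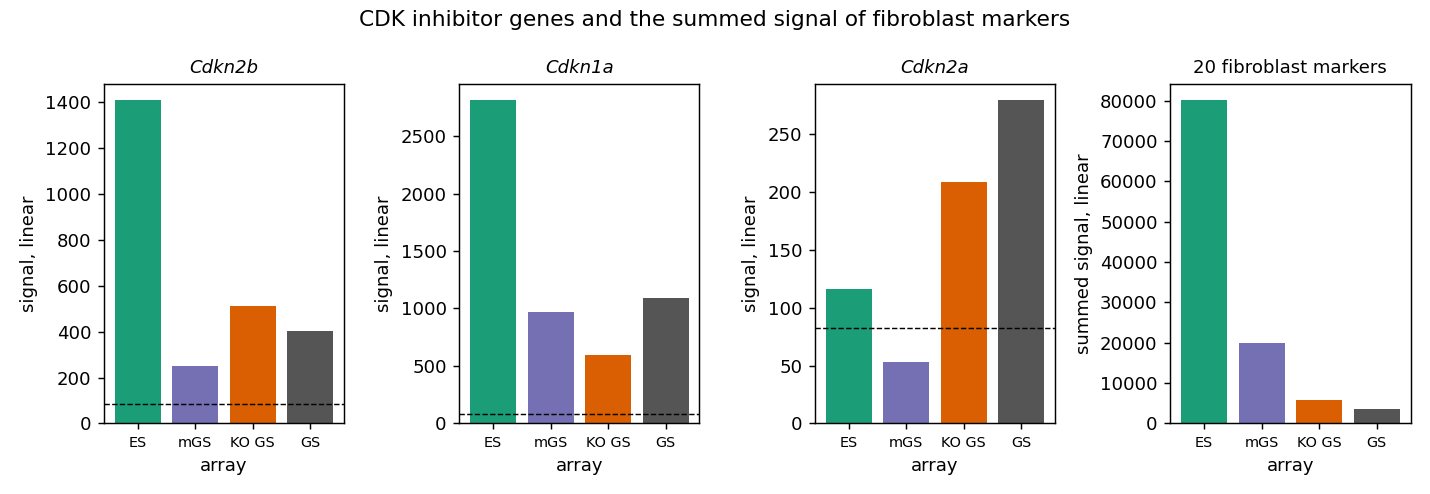
Linear quantile-normalized signal (y axes, each with its own scale) of Cdkn2b, Cdkn1a and Cdkn2a and the summed signal of 20 fibroblast markers on the ES, mGS, Trp53 KO GS and GS arrays (x axes); bars are single arrays and the dashed line is the array median, 82.7. Cdkn2b, Cdkn1a and the marker sum are highest on ES, at 1411, 2815 and 80241, while Cdkn2a is highest on GS.

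Fibroblast markers were highest on the ES array by sum and by number above the median. The Cdkn2b and Cdkn1a signals were highest there too. The order of the other arrays depended on the measure of the markers. Of 19 markers compared between ES and mGS, ES exceeded mGS by 2-fold or more for 17, with a median log2 difference of 2.98. On the ES array 19 of the 20 markers were above the array median, against 11 on mGS, 14 on knockout GS and 12 on GS. The mGS array had the next highest marker sum, 19999.8, but the fewest markers above the median, and its Cdkn2b signal, 249, was the lowest. By number above the median, the arrays had the same order as by Cdkn2b. Its Cdkn1a signal was 965, against 1095 on GS. On mGS, Vim at 7871 and Sparc at 6906 made up most of the marker sum. The part of fibroblast RNA in these values was not tested.

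Cdkn2d was the most even of the genes above the median. It encodes an INK4 protein whose level varies over the cell cycle, and it read 427 on ES, 375 on mGS, 414 on knockout GS and 439 on GS. Its range of 1.17-fold was wider than that of only 5.02% of genes. Cdkn2c, another INK4 gene, read 76.3, 60.9, 74.3 and 71.9 on ES, mGS, knockout GS and GS, under the array median on each, so no difference is given for it.

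Rb1, the founding pocket protein gene and a tumour suppressor, divided the cultures into 2 pairs that differ in both medium and cell type. Its lead probe set read 459 on the ES array, 449 on mGS, 2471 on knockout GS and 2068 on GS. The ES and mGS arrays lay within 1.02-fold of each other and the knockout GS and GS arrays within 1.20-fold, whereas mGS was 4.61-fold and ES 4.51-fold below GS. Only 3.20% of genes compared had a lower difference for mGS against GS, and 3.44% for ES against GS. The gap between the pairs, from the higher of ES and mGS to the lower of knockout GS and GS, was 4.51-fold. Among 12897 genes, 8.38% had such a gap of at least 2-fold on the lower side, and Rb1 was the 1 member that did; on the higher side 7.65% had one and no member did. Without a minimum, 58.7% of those genes did not overlap between the pairs, and so did 4 members, Rb1, Cdkn2a and Rbl1 lower and Rbl2 higher in ES medium. A second probe set was under the median on ES, mGS and GS, at 3.55, 18.2 and 21.9, and read 94.7 on knockout GS.

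Rbl1, which encodes p107, a pocket protein whose gene is itself an E2F target, had a lead probe set that read lower in ES medium by a small margin. The lead probe set read 473 on ES, 407 on mGS, 622 on knockout GS and 681 on GS. The mGS signal was 1.67-fold lower than GS, the ES signal 1.44-fold and the knockout GS signal 1.10-fold, none past 2-fold. Its probe sets disagreed: a second one read 151 on ES, 70.2 on mGS, 290.1 on knockout GS and 123 on GS, so that against GS it was 1.22-fold higher on ES and 2.35-fold higher on knockout GS. The remaining 2 probe sets of Rbl1 were under the median on all arrays. With the mean of its probe sets Rbl1 lay under the median on all 4 arrays, and the pairs had no gap. A direction for Rbl1 on ES or knockout GS against GS is therefore not given.

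Rbl2, which encodes p130, the pocket protein of resting cells, went the other way from Rb1 at low signals. It read 99.7 on ES, 163 on mGS, 88.5 on knockout GS and 83.1 on GS, all close to the median of 82.7 except mGS. The mGS signal was 1.96-fold above GS, just short of 2-fold, and ES was 1.63-fold below mGS. Both depend on the floor: with it at the 60th percentile, ES and GS were raised to it. The log2 differences were then bounds, 0.08 for mGS against GS and -0.08 for ES against mGS. With the mean of the probe sets mGS was at least 0.44 above GS in log2, a bound since GS lay under the median, and ES against mGS was -0.36. The second probe set was under the median on all 4 arrays. By their lead probe sets, Rb1 and Rbl1 read lower and Rbl2 higher on mGS than on GS, and 1 of the 3 passed 2-fold.

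**Figure D3:**
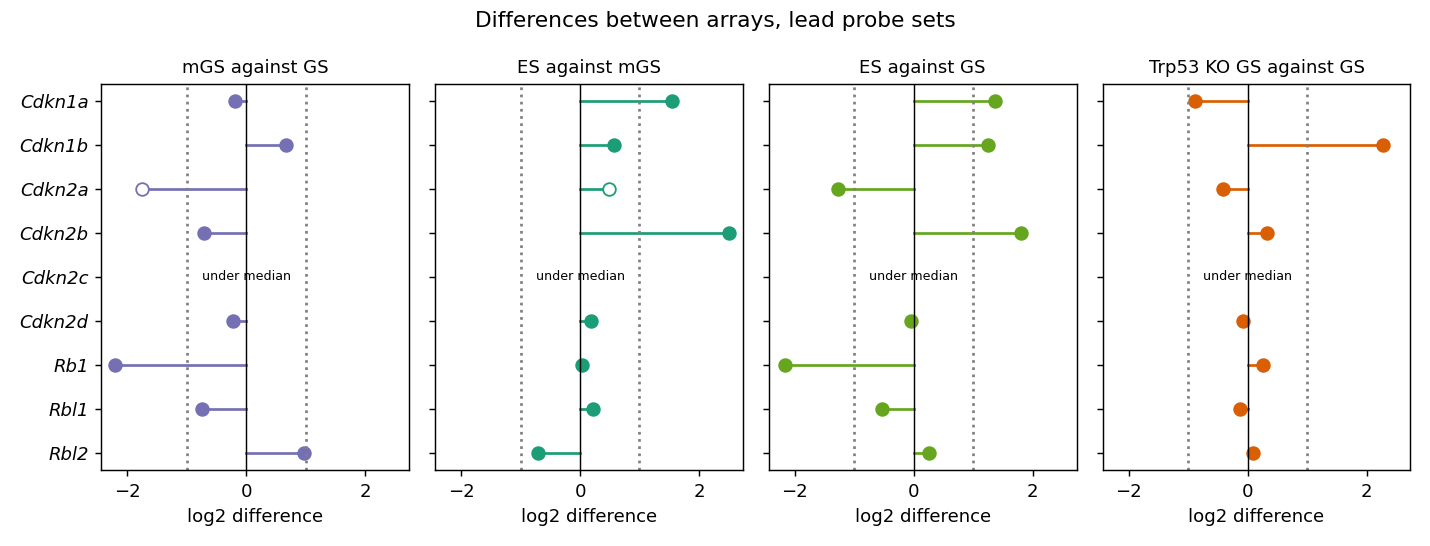
Log2 difference (x axis) of each gene (y axis) for mGS against GS, ES against mGS, ES against GS and Trp53 KO GS against GS; positive values are higher on the array named before "against", open points are bounds against the array median, dotted lines mark 2-fold, and Cdkn2c was under the median on all arrays. The longest bars are Rb1 for mGS and ES against GS, Cdkn2b for ES against mGS and Cdkn1b for Trp53 KO GS against GS, with log2 differences of -2.20, -2.17, 2.50 and 2.27.

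**Figure D4:**
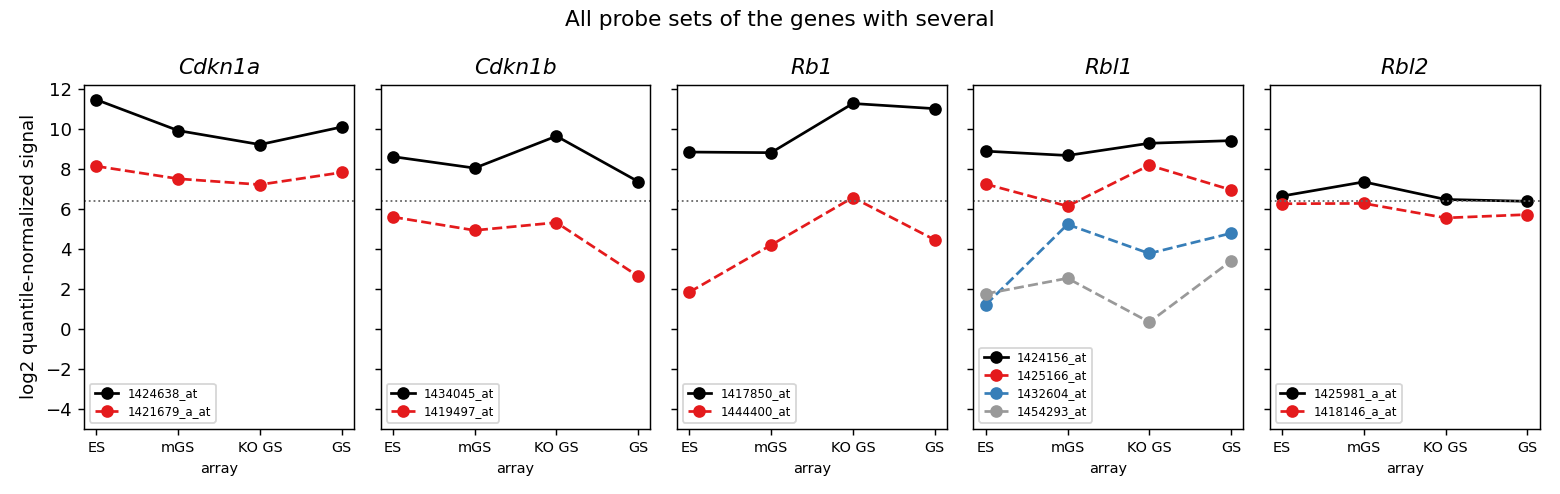
Log2 quantile-normalized signal (y axis) of every probe set of Cdkn1a, Cdkn1b, Rb1, Rbl1 and Rbl2 on the ES, mGS, Trp53 KO GS and GS arrays (x axis); the solid black line is the lead probe set and the dotted line the array median. The Cdkn1a probe sets share their order of arrays, with smaller differences in the second, the second Rbl1 probe set peaks on the knockout GS array where the lead does not, and the second probe sets of Cdkn1b and Rbl2 lie under the median.

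The genes with profiles most like Cdkn2b and Rb1, the members of widest range, were found by the root mean square difference of centred log2 signals over 4 arrays among 11591 genes. For Cdkn2b they were Tmem176b (0.12), Rcbtb2 (0.12) and Sec24d (0.14). Rcbtb2 read 1367 on ES, 265 on mGS, 429 on knockout GS and 395 on GS. It lies next to Rb1 on chromosome 14 and differed from Rb1, with its peak on ES rather than on the GS-medium arrays. For Rb1 they were Spata1 (0.02), Ccdc158 (0.03) and Tspoap1 (0.04). These 3 were raised to the median on the ES and mGS arrays, so their drop there is a bound, and 4 arrays give little power to rank profiles.

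The other genes of the pathway set these values in context, and their counts stand beside 15.3% of all genes 2-fold higher and 16.5% lower for mGS against GS, 6.9% and 5.13% for ES against mGS, and 9.77% and 6.93% for knockout GS against GS. Among 11 G1 cyclin and kinase genes, mGS exceeded GS by 2-fold or more for 4 and fell short of it by as much for 3, with a median of 0.12. Ccne1, the gene of cyclin E1, read 4842 on mGS and 431 on GS, 11.2-fold higher, and Ccnd3 was 4.54-fold and Cdk6 2.48-fold higher. Ccnd2, a D cyclin of spermatogonia, was 23.2-fold lower, and Ccne2 2.50-fold lower. On ES against mGS, 3 of 11 were higher and none lower: Ccnd2 by 7.84-fold, Ccnd1 by 2.93-fold and Ccne2 by 2.59-fold. Cdk2 and Cdk4, kinases that the inhibitors restrain, lay within 2-fold in all 4 comparisons. Genes within 2-fold that are named here were picked after their values were seen.

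On mGS against GS, 2 of 10 E2F and DP genes passed 2-fold, each upward: the repressor gene E2f8 by 2.28-fold and E2f4, the main partner of p107 and p130, by 2.17-fold. None of the 10 differed by 2-fold between ES and mGS. Of 8 genes of the MuvB core and its DREAM partners, Mybl2, which joins MuvB in dividing cells, read 7746 on mGS and 643 on GS, and Lin52 was 2.36-fold higher, while Foxm1 was 2.52-fold lower. Of 17 E2F target genes of S phase, 15 lay within 2-fold between mGS and GS, with Pola1 2.62-fold and Cdc6 2.01-fold higher, and all 17 within 2-fold between ES and mGS. The medians of these 17 were -0.09 and -0.13.

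Regulators of the Cdkn2a-Cdkn2b locus split on the mGS array, with 4 of 16 compared at least 2-fold higher and 5 lower than on GS. Bmi1, a Polycomb gene whose product represses Cdkn2a, read 90.1 on mGS and 3067 on GS, 34.0-fold lower, and Cbx8, of the same complex, was at least 6.38-fold lower. Cbx7, another Polycomb repressor of the locus, was 3.65-fold higher, and Tbx3, a T-box repressor of Arf, at least 15.5-fold higher. On ES against mGS, Bmi1 was 4.26-fold higher and Tbx3 4.62-fold lower. Of 14 regulators of Cdkn1a and Cdkn1b, Klf6 and Klf4, zinc finger genes whose products activate Cdkn1a, were 5.30-fold and 4.82-fold higher on mGS than on GS. The Forkhead gene Foxo1, an activator of Cdkn1b, was 2.80-fold lower, and Zbtb16 read 127 on mGS and 8212 on GS. Cdkn1c, the imprinted member of the CIP/KIP family, read 676 on ES, 192 on mGS, 753 on knockout GS and 1872 on GS. It was 9.75-fold lower on mGS than on GS and 3.52-fold higher on ES than on mGS.

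On the knockout GS array, genes of S phase read low. A link to the Cdkn1b signal of that array, which rests on 1 probe set, was not tested. Of 17 E2F target genes of S phase, 8 were at least 2-fold lower than on GS and none higher, and all 17 were below 0, with a median of -0.86, whereas 6.93% of all genes were 2-fold lower. Cdk1, the mitotic kinase gene, read 779 on knockout GS and 4677 on GS. Ccna2, the gene of cyclin A2, was 4.39-fold lower and the thymidine kinase gene Tk1 3.88-fold, while Rrm2 read 297 on knockout GS and 4640 on GS. Tyms was 3.30-fold and Cdc6 2.39-fold lower. Of the 6 replication licensing genes of the MCM complex, Mcm5 was 2.32-fold and Mcm3 2.12-fold lower. Mcm7 was 1.64-fold lower, and Mcm2, Mcm4 and Mcm6 were lower by at most 1.41-fold.

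Among the 11 G1 cyclin and kinase genes, Ccnd1 read 238 on knockout GS and 1894 on GS, and Ccne1 was at least 5.21-fold lower, with none 2-fold higher. Of 10 E2F and DP genes, E2f8 was at least 5.91-fold, E2f3 2.34-fold and E2f7 2.04-fold lower, and the repressor gene E2f6 3.11-fold higher. Of 8 MuvB and DREAM genes, Foxm1 was 2.09-fold lower. Skp2, the gene of the F-box protein that marks p27 for degradation, read 2742 on knockout GS and 2938 on GS, 1.07-fold lower. Of 12 turnover genes, Usp28 was 2.26-fold higher and Dtl, the substrate receptor that degrades p21, 2.69-fold lower. Smad3 was 2.18-fold higher and Tgfb1 3.11-fold lower on knockout GS. Cdkn1c was 2.48-fold lower and Cdkn3 2.98-fold lower. The low bioC control of this array and its high dap control, given above, also set it apart from the GS array. Their part in these values was not tested.

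**Figure D5:**
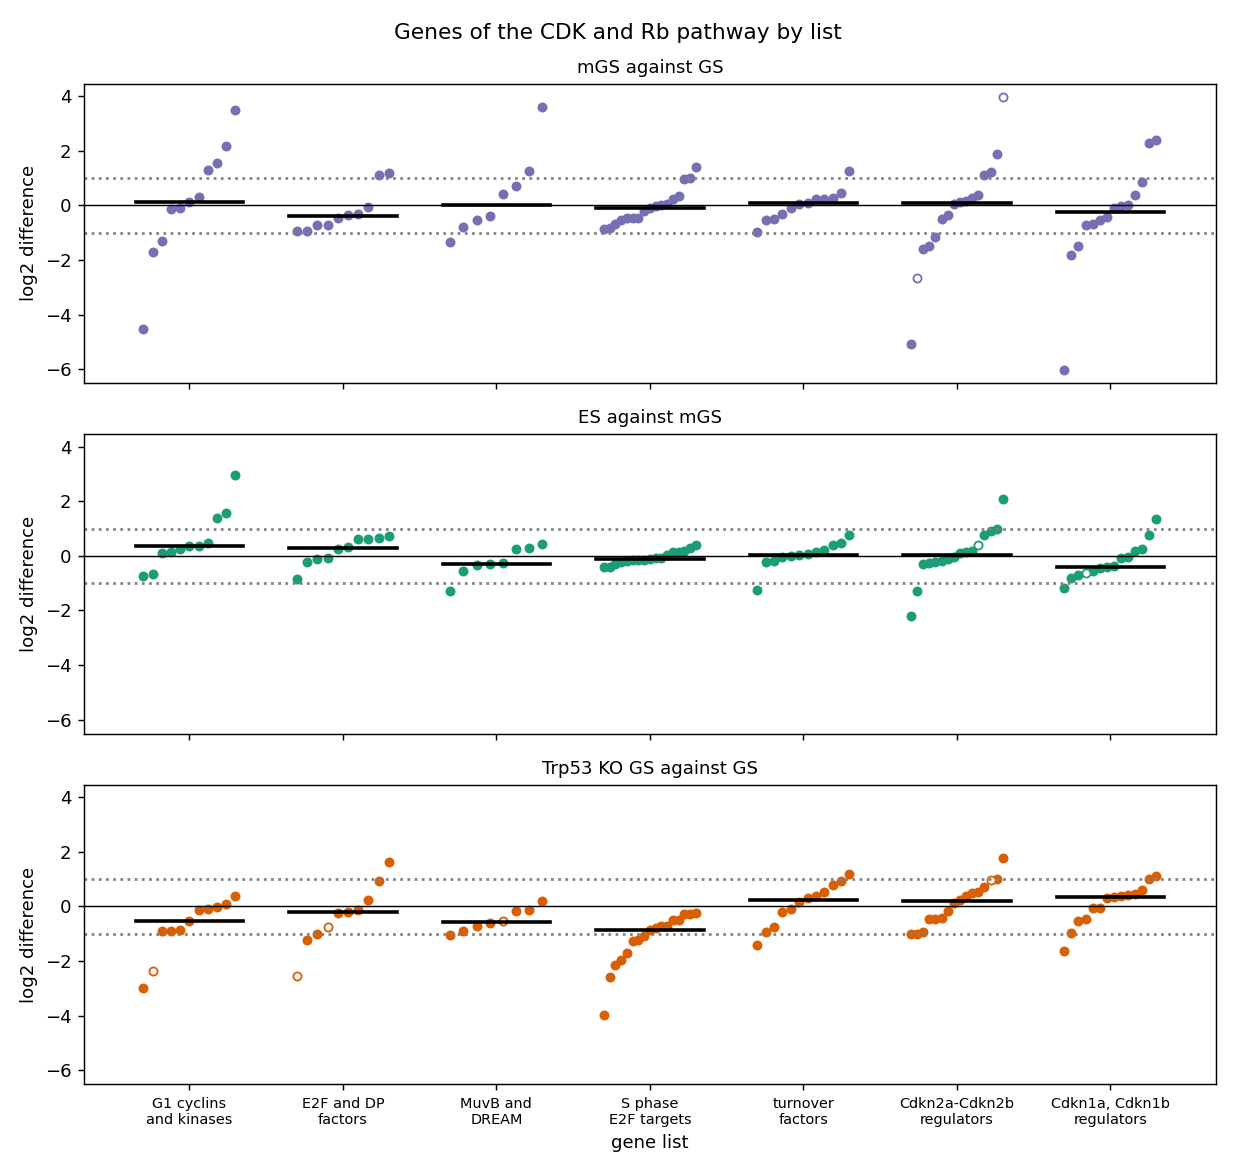
Log2 difference (y axis) of each gene of 7 lists of the CDK and Rb pathway (x axis) for mGS against GS, ES against mGS and Trp53 KO GS against GS; points are genes, sorted within a list, open points are bounds, thick bars are list medians and dotted lines mark 2-fold. The S phase list sits near 0 in the upper panels, with medians of -0.09 and -0.13, and lies wholly below 0 on the knockout GS array, with a median of -0.86.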

How the data were processed

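Total RNA of 4 cultures was extracted with Trizol and made into biotinylated cRNA, per the labels' protocols. The values that the authors deposited are linear intensities, 1 for each probe set of an array, and their mean after trimming 2% from each end was 500.003 on all arrays, so they had been scaled. The summarising software is not stated in the sources at hand. After 64 control probe sets were set aside, log2 values of 45037 were quantile normalized over the 4 arrays, which hides a change in total RNA. Probe sets with 1 gene symbol (34945) were named from the platform's annotation, and 34741 matched the GRCm38.p6 gene table by gene identifier, so that names are current; 932 with several symbols and 9160 not listed were left out. The probe set of highest mean led each gene. Log2 values under the array median, 6.37, were raised to it. Genes were counted at 2-fold, and no test was run. The text names the 9 members, up to 4 genes per direction from each pathway list and 3 genes nearest in profile. Outside this rule it also names the MCM genes, Tyms and Cdc6 on knockout GS, and Cdk2, Cdk4 and Skp2. Of 185 list genes, 177 were measured. The members and lists were chosen with earlier results of these data known. Marker lists for Sertoli, Leydig and leukocyte cells had 2 to 4, 1 to 2 and 1 to 3 genes above the median on any 1 array, and 9 housekeeping genes were above it on all 4. Normalization and log2 differences were tested on simulated data, with differences planted only in probe sets above the 60th percentile of the GS array. The choice of lead probe set, the effect of the floor on low signals, the gaps and the motif search were not tested in this way. Alternatives were the deposited values, centring on medians, mean of probe sets, no _s_at or _x_at probe sets, other floors, a pseudocount of 32 and probe sets with several symbols. Software was numpy 2.4.6 and pandas 2.3.3 in Python 3.11.15, with figures from matplotlib 3.10.9.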

Additional observations from a re-analysis of the deposited data

How the results depend on the processing

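Each alternative was applied alone to the 32 log2 differences of the members. Of 280 values so obtained, none of a difference past 2-fold changed sign, 3 values of 2 differences of at most 0.08 in size did, 8 crossed 2-fold and 14 moved by more than the scatter between probe sets. Dropping _s_at and _x_at probe sets, or keeping those with several symbols, could not change a member, since no member probe set was of either kind. Other floors could change only members with low signals. These counts therefore include values that were fixed in advance. Averaging probe sets per gene takes in those under the array median. With it, 1 member in place of 3 was 2-fold higher on ES than on GS, where the Cdkn1b value was only a bound. On knockout GS, 2 in place of 1 were then higher than on GS (Rb1 joining at 1.19). The log2 gap of Rb1 between the ES and mGS pair and the knockout GS and GS pair became -1.23 in place of -2.17. With the floor at the 60th percentile, 1 member in place of 2 was lower on mGS and on ES than on GS, since Cdkn2a gave only a bound that no longer passed. With arrays centred on their medians, 1 member, Cdkn1a, was 2-fold lower on knockout GS than on GS. With the values as deposited, 2 members in place of 1, Cdkn2a beside Rb1, separated the ES and mGS pair from the knockout GS and GS pair by 2-fold. Counts over all genes rose by construction when low signals were let in. Without a floor the higher and lower genes numbered 3999 and 4021 for mGS against GS, 2747 and 2574 for ES against mGS, 4168 and 4100 for ES against GS, and 3166 and 2597 for knockout GS against GS. With the floor at the 30th percentile they were 1397 and 1167 for ES against mGS, with 1759 higher for knockout GS against GS, and with a pseudocount of 32 the lower genes of ES against mGS were 975. With arrays centred on their medians the S phase list had 11 of 17 genes 2-fold lower on knockout GS than on GS, and 15 of 16 below 0 with the mean of probe sets. That centring moved the log2 differences of knockout GS against GS by -0.16 and of ES against mGS by -0.11, as medians over all genes. No paired analysis was possible because each group has 1 array. Probe sets near the array median, among them those of Rbl2 and Cdkn2c, are limited by signal over background.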
